A study of Homo sapiens with 20 samples.

Results

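The Toll-like receptors are a family of innate immune sensors, and their transcripts were followed in 5 lines of classical Hodgkin lymphoma in which the transcription factor FOXO1 could be switched on. Members were the probe sets whose annotation gave exactly 1 symbol from TLR1 to TLR10. Of the 10 receptors, 8 had a probe set, out of 18416 genes with a probe set in all, and each of the 8 had a single one. These were TLR1 (8099834), TLR2 (8097903), TLR3 (8098611), TLR4 (8157524), TLR6 (8099841), TLR7 (8166059), TLR8 (8166065) and TLR9 (8087852). TLR5 and TLR10 matched no probe set under this rule and were not analysed here.

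The established lines are labelled KM-H2, L428, UHO-1, L1236 and SUP-HD1. Every culture, treated or not, carried FOXO1(3A)ER, a FOXO1 mutant that is always active, fused to the oestrogen receptor's ligand-binding domain so that it works once 4-hydroxytamoxifen (4-OHT) binds. In each line 2 arrays measured cells given 4-OHT for 24 h and 2 arrays measured cells given ethanol as vehicle, 20 arrays in all. The labelled dose is 200 µM, in a protocol text that names another fusion protein in L428 and KM-H2, so it is quoted only as labelled. Cells without the fusion that received 4-OHT were not analysed here, so an effect of FOXO1 and an effect of 4-OHT itself cannot be told apart. The labels say that the experiment was done 2 times but do not tie the arrays to separate cultures, so the p-values cover a spread between arrays that may be technical.

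Toll-like receptors recognise molecules shared by many microbes and signal through adaptor proteins, chiefly MYD88 and TICAM1 (TRIF), to NF-kB and to interferon regulatory factors. TLR1, TLR2, TLR4 and TLR6 act at the cell surface, where TLR2 pairs with TLR1 or TLR6 to bind bacterial lipopeptides and TLR4 binds lipopolysaccharide. TLR3, TLR7, TLR8 and TLR9 act in endosomes and sense nucleic acids. Human B cells commonly express TLR1, TLR6, TLR7, TLR9 and TLR10, and classical Hodgkin lymphoma derives from B cells that have lost much of their B cell programme.

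Promoter sequences are shown for the 4 members that changed in at least 1 line and had an entry in the RefSeq promoter table of GRCh38.p14, which gives 250 bases before to 50 bases after a gene's start. The table matched 7 of the 10 members by symbol, all but TLR1, TLR7 and TLR10. Sequences run 5′ to 3′ on the gene's own strand, in lower case, with letters that match a searched motif in capitals. The TLR2 window lies at chr4:153684030-153684329 and the TLR3 window at chr4:186068906-186069205, both on the plus strand. The TLR6 window lies at chr4:38856768-38857067 and the TLR9 window at chr3:52225596-52225895, both on the minus strand.
TLR2 promoter: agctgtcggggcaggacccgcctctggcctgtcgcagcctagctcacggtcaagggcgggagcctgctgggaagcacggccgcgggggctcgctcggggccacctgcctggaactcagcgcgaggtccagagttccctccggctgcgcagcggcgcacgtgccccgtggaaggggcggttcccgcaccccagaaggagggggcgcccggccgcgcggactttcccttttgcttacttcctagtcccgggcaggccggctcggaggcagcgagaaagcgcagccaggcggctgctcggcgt
TLR3 promoter: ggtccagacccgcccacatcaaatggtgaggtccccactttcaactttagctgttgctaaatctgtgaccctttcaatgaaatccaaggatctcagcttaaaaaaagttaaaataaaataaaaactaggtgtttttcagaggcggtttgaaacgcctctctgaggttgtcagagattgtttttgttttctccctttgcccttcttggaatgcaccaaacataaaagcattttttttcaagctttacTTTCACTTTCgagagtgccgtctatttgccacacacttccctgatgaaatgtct
TLR6 promoter: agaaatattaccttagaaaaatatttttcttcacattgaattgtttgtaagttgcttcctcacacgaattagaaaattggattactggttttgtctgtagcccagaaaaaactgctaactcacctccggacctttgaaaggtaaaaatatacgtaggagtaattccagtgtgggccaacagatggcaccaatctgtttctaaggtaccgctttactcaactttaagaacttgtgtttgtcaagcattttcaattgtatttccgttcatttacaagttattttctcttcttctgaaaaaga
TLR9 promoter: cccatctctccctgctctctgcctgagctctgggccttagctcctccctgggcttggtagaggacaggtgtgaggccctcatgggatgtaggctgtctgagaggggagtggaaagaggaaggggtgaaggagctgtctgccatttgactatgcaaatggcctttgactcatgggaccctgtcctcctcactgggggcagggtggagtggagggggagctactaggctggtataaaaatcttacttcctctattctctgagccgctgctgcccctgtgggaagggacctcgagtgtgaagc

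The forkhead core TGTTTAC, searched on both strands, around which FOXO factors bind, was found in 0 of the 7 member promoters and in 931 of 27305 promoters in the table (3.41%). The interferon response motif, GAAA repeated after any 2 bases and searched on both strands, which interferon regulatory factors recognise, was found in 1 of the 7, TLR3, and in 996 of the 27305 (3.65%). In TLR3 the match is TTTCACTTTC at bases 247 to 256 of the window, which reads as the motif on the opposite strand. A match or its absence describes these letters in these 300 bases and nothing more.

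The arrays labelled L1236 went against their label. All 5 T cell markers searched (CD2, CD3D, CD3E, CD3G and TRAT1) lay above background on them in both arms, against 0 of 5 in either arm of each other line. CD3E, a chain of the T cell receptor complex, averaged 12.15 after 4-OHT and 12.22 after vehicle on these arrays on the log2 scale. The summed linear signal of the 5 markers was 13261 to 13869 after 4-OHT and 14186 to 14408 after vehicle, while in UHO-1 and SUP-HD1 it was 171 to 228 after 4-OHT and 168 to 227 after vehicle. Of 7 Hodgkin cell markers, 5 lay above background on the arrays labelled L1236 (CD40 and TRAF1 did not), against 7 of 7 in every other line. Their sum was 1027 to 1109 after 4-OHT and 956 to 1131 after vehicle there, against 10866 to 11714 and 10739 to 13005 in UHO-1 and SUP-HD1. The 4 arrays are called by their label below, and averages over lines, counts of those averages and F tests between lines are given with and without them.

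**Figure D1:**
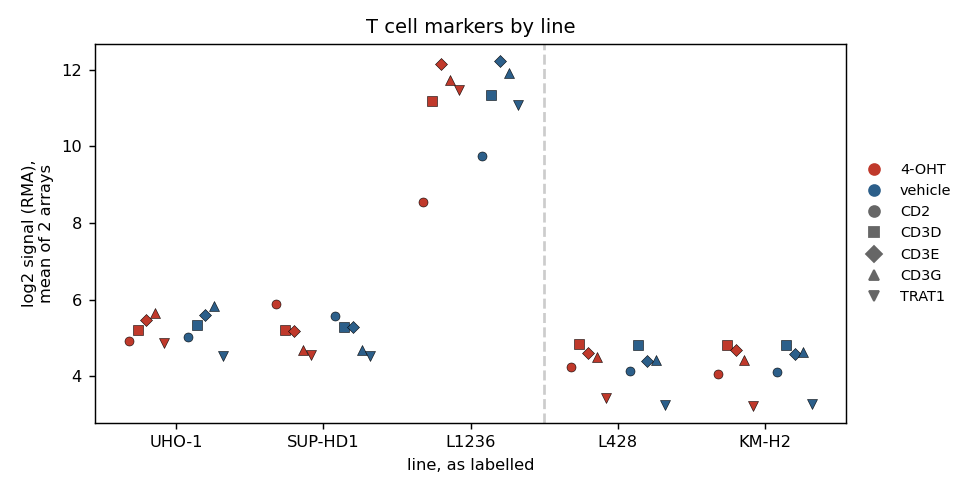
Mean log2 signal of the 5 T cell markers (vertical axis, RMA values, mean of 2 arrays) in each line as labelled (horizontal axis), with 4-OHT in red left of vehicle in blue and 1 symbol shape per gene. The dashed line parts the sets of arrays that were taken as normalised separately. The arrays labelled L1236 stand far above the others, with CD3E at 12.15 after 4-OHT and 12.22 after vehicle.

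Signals are log2 values of the robust multichip average (RMA). From their sorted values the arrays were taken as sets normalised apart, KM-H2 with L428 (8 arrays) and UHO-1, SUP-HD1 and L1236 (12 arrays). Levels of different lines were set side by side within a set, and 4-OHT arrays were tested against the vehicle arrays of the same line. With no detection call in the files, background was the 95th percentile of 381 probe sets of olfactory receptors, smell receptors that are largely silent in lymphoid cells, on the same array. It lay at 5.01 to 5.17 in the KM-H2 and L428 set and at 5.71 to 5.94 in the other set, and a receptor counted as above it when both arrays of an arm exceeded it. Genes reaching log2 5 in at least 2 arrays entered the test, 15850 in all, and a gene was called at a limma adjusted p below 0.05 over all of them. Of the 8 receptors, 6 passed that filter, and TLR4 and TLR8 did not.

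After 4-OHT, 15 of the 40 combinations of receptor and line lay above background, against 11 after vehicle. In UHO-1 these were TLR1, TLR3 and TLR9 after 4-OHT, and TLR3 and TLR9 after vehicle. In SUP-HD1, TLR1, TLR6 and TLR9 lay above it in both arms, and in the line labelled L1236, TLR3 and TLR9. In L428 the list was TLR1, TLR2, TLR3 and TLR9 after 4-OHT, and TLR2 and TLR9 after vehicle. In KM-H2 it was TLR1, TLR7 and TLR9 after 4-OHT, and TLR7 and TLR9 after vehicle. The 4 combinations that stood above background after 4-OHT and not after vehicle were thus TLR1 in UHO-1, L428 and KM-H2, and TLR3 in L428. The TLR1 signals of those 3 lines also exceeded the 99th percentile of the olfactory receptors on every 4-OHT array, and the TLR3 signals of L428 did not. The vehicle side depends on the cutoff for TLR1. Against the 90th percentile both vehicle arrays of L428 and of UHO-1 stood above it, and those of KM-H2 did not. The second L428 vehicle array read 5.0265 against a background of 5.0272.

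**Figure D2:**
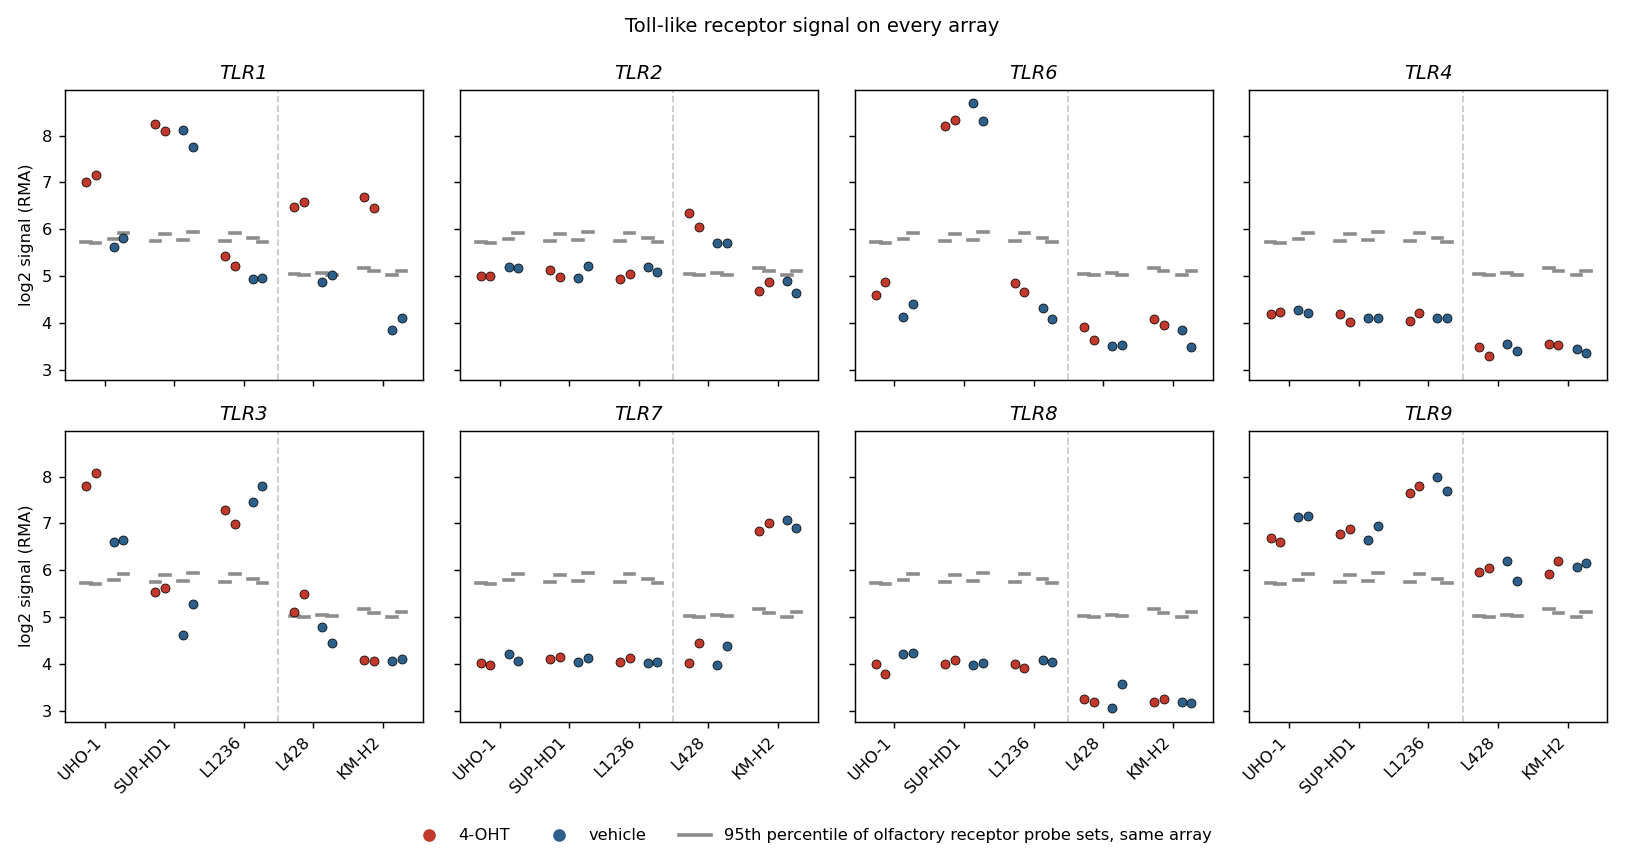
Log2 signal (vertical axis, RMA) of the 8 receptors on each of the 20 arrays, by line (horizontal axis), with 4-OHT in red left of vehicle in blue. Grey bars mark the 95th percentile of olfactory receptor probe sets on the same array. The dashed line parts the sets taken as normalised separately. TLR1 crosses the grey bars with 4-OHT in UHO-1, L428 and KM-H2, TLR7 stands above them in KM-H2, and TLR9 stands above them in every line.

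TLR1, the partner of TLR2 for triacylated lipopeptides, had the largest change of the family as read. In KM-H2 its signal was 6.68 and 6.45 after 4-OHT and 3.84 and 4.10 after vehicle. In L428 it was 6.47 and 6.57 after 4-OHT, against 4.88 and 5.03 after vehicle. In UHO-1 it was 7.01 and 7.15 after 4-OHT, against 5.62 and 5.81 after vehicle. In each of these 3 lines both 4-OHT arrays lay well above both vehicle arrays. SUP-HD1 gave 8.24 and 8.10 after 4-OHT and 8.11 and 7.76 after vehicle, and the line labelled L1236 gave 5.42 and 5.22 after 4-OHT and 4.94 and 4.97 after vehicle. SUP-HD1 already had the highest vehicle level of its set and its arms overlapped, while the signal of the arrays labelled L1236 stayed below background in both arms.

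The TLR1 difference (4-OHT minus vehicle) was 2.60 ± 0.13 in KM-H2, 1.57 ± 0.13 in L428 and 1.37 ± 0.13 in UHO-1 on the log2 scale (SE, n = 2 arrays per arm), with limma adjusted p of 5.32e-13, 4.27e-09 and 1.06e-07. Because the vehicle arrays of these lines were not above background, the level after 4-OHT was at least 2.84-fold higher in KM-H2, at least 2.79-fold in L428 and at least 2.34-fold in UHO-1, measured against the background value of each vehicle array. In SUP-HD1 the difference was 0.23 ± 0.13 and was not called (limma adjusted p = 0.425). On the arrays labelled L1236 it was 0.37 ± 0.13 and just passed (limma adjusted p = 0.0489), a call that was lost in 21 of 31 other settings. RNA was taken from whole cultures, so more cells with the transcript and more transcript per cell cannot be told apart.

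In 4 of the 5 lines the TLR1 vehicle signal was below background, so averages over lines rest on readings under that cutoff. As read, the average difference was 1.23 ± 0.06 (limma adjusted p = 1.83e-13), and 1.44 ± 0.07 without the arrays labelled L1236 (adjusted p = 5.28e-13). It was 2.08 within KM-H2 and L428 and 0.66 within the other set. The response differed between lines (limma F test, adjusted p = 3.65e-09, and 5.24e-08 without the arrays labelled L1236). Of the 10 pairs of lines, 8 differed in their TLR1 response after adjustment over all genes and pairs, where 17.3% of all gene and pair combinations did. KM-H2 differed from UHO-1 (UHO-1 minus KM-H2, -1.23 ± 0.19) and from L428 (L428 minus KM-H2, -1.03 ± 0.19) as read, but with vehicle arrays set to their background the differences were at least 1.51 in KM-H2, 1.48 in L428 and 1.22 in UHO-1, which gives no order among the 3. Those bounds all exceed the 0.23 measured in SUP-HD1, which was above background in both arms and from which KM-H2, L428 and UHO-1 each differed in the pairwise tests. These pairwise tests were added after the F test had been seen.

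TLR6, the partner of TLR2 for diacylated lipopeptides, is the neighbour and closest relative of TLR1. Its signal was 8.21 and 8.32 after 4-OHT and 8.70 and 8.32 after vehicle in SUP-HD1, where the arms overlapped. In every other line it lay below background, at 3.49 to 4.86, so that TLR6 entered the test through SUP-HD1. SUP-HD1 was thus the line in which TLR6 could be measured, and there its difference was -0.24 ± 0.15 and was not called (limma adjusted p = 0.491). Below background, the difference passed in UHO-1 (0.47 ± 0.15, adjusted p = 0.0294) and in the line labelled L1236 (0.56 ± 0.15, adjusted p = 0.00866), and did not in KM-H2 (0.35 ± 0.15, adjusted p = 0.107) or L428 (0.26 ± 0.15, adjusted p = 0.232). Both calls were lost when single arrays of the same line were left out. In KM-H2, where TLR1 rose by 2.60, the TLR6 probe set read 4.09 and 3.96 after 4-OHT and 3.85 and 3.49 after vehicle. How far the probes of each set could bind transcripts of the other gene was not tested. The average TLR6 difference was 0.28 ± 0.07 (adjusted p = 0.00198), and 0.21 ± 0.07 without the arrays labelled L1236 (adjusted p = 0.0311), but every positive difference in it came from a line below background. The F test between lines (adjusted p = 0.0292, and 0.0464 without the arrays labelled L1236) uses the same readings, and SUP-HD1 differed from UHO-1 and from the line labelled L1236 in the pairwise tests.

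TLR2, the shared partner of TLR1 and TLR6, was above background in L428. There it was 6.35 and 6.05 after 4-OHT against 5.71 and 5.70 after vehicle, and the arms did not overlap. It rose by 0.49 ± 0.13 in L428, 1.40-fold (limma adjusted p = 0.00418), and the call was lost without the first 4-OHT array (adjusted p = 0.103). In the other 4 lines it lay between 4.64 and 5.22, below background in both arms, with differences of -0.18 to 0.0045 that were not called. The differences varied between lines (limma F test, adjusted p = 0.0216, and 0.026 without the arrays labelled L1236), with the lines other than L428 below background. L428 differed from UHO-1, SUP-HD1 and the line labelled L1236 and did not pass against KM-H2. L428 was therefore the line with both TLR1 and TLR2 above background after 4-OHT. In SUP-HD1, TLR1 and TLR6 stood above background while TLR2, at 4.95 to 5.22, did not. TLR4, the lipopolysaccharide receptor, lay at 3.28 to 4.27 on all 20 arrays, below background throughout, and was not tested.

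TLR3, the sensor of double-stranded RNA, which signals through TICAM1, gave differences of both signs. UHO-1 gave 7.80 and 8.07 after 4-OHT and 6.61 and 6.65 after vehicle. L428 gave 5.10 and 5.49 after 4-OHT, against 4.79 and 4.45 after vehicle. In these lines every 4-OHT array lay above every vehicle array. SUP-HD1 gave 5.53 and 5.63 after 4-OHT and 4.62 and 5.28 after vehicle, below background in both arms. The line labelled L1236 gave 7.297 and 6.997 after 4-OHT and 7.46 and 7.80 after vehicle, the highest vehicle level of its set. KM-H2 stayed at 4.06 to 4.11 in both arms, below background.

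The rise was 1.305 ± 0.18 in UHO-1, 2.47-fold, with a limma adjusted p of 1.25e-05. In L428 the difference was 0.68 ± 0.18 (adjusted p = 0.00491), at least 1.2-fold against the background value of its vehicle arrays, and it was lost without the second 4-OHT or the second vehicle array. In SUP-HD1 it was 0.63 ± 0.18 (adjusted p = 0.0365), where the vehicle arrays lay apart at 4.62 and 5.28, and it was lost in 5 of 31 other settings. The difference of -0.48 ± 0.18 on the arrays labelled L1236 just missed the threshold (adjusted p = 0.0547) and passed in 12 of 31 other settings. KM-H2 gave -0.0025 ± 0.18 (adjusted p = 0.996). The average over the 5 lines was 0.43 ± 0.08 (adjusted p = 0.000143) and was 0.65 ± 0.08 without the arrays labelled L1236 (adjusted p = 3.25e-06), but it did not pass without UHO-1 (0.21, adjusted p = 0.0935). The response varied between lines (limma F test, adjusted p = 5.22e-05, and 0.00238 without the arrays labelled L1236). In the pairwise tests UHO-1 stood 1.31 ± 0.25 above KM-H2, which was below background in both arms (adjusted p = 0.000654). UHO-1 did not pass against L428 (0.63 ± 0.25, adjusted p = 0.0933) or SUP-HD1 (0.68 ± 0.25, adjusted p = 0.0689). UHO-1, L428 and SUP-HD1 each stood above the line labelled L1236 (adjusted p of 1.81e-05, 0.00206 and 0.00298).

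TLR7, the sensor of single-stranded RNA, was above background in KM-H2 and below it elsewhere. In KM-H2 it was 6.85 and 7.01 after 4-OHT and 7.08 and 6.90 after vehicle, and the arms overlapped. The other 4 lines lay at 3.98 to 4.45, so that TLR7 entered the test through KM-H2. No line passed the test, the KM-H2 difference being -0.06 ± 0.13 (limma adjusted p = 0.846) and the average -0.0079 ± 0.06 (adjusted p = 0.94, and 0.809 without the arrays labelled L1236). TLR8, its close relative, lay at 3.05 to 4.24 on all arrays, below background, and was not tested.

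TLR9, the sensor of unmethylated CpG DNA, was above background in both arms of every line. UHO-1 gave 6.68 and 6.61 after 4-OHT and 7.14 and 7.16 after vehicle, and both 4-OHT arrays lay below both vehicle arrays. There it fell by 0.51 ± 0.14 on the log2 scale, a ratio of 0.705 (limma adjusted p = 0.0106), and the call was lost without the second array of either arm. The other lines gave 6.77 and 6.88 after 4-OHT and 6.64 and 6.94 after vehicle in SUP-HD1, and 7.65 and 7.81 after 4-OHT and 7.99 and 7.69 after vehicle in the line labelled L1236. L428 gave 5.96 and 6.05 after 4-OHT and 6.19 and 5.78 after vehicle, and KM-H2 gave 5.93 and 6.20 after 4-OHT and 6.08 and 6.15 after vehicle. In these 4 lines the arms overlapped and the differences, -0.11 to 0.04, were not called. The F test of a difference between lines did not pass (adjusted p = 0.111, and 0.0631 without the arrays labelled L1236). The fall in UHO-1 is therefore not shown to be particular to that line.

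**Figure D3:**
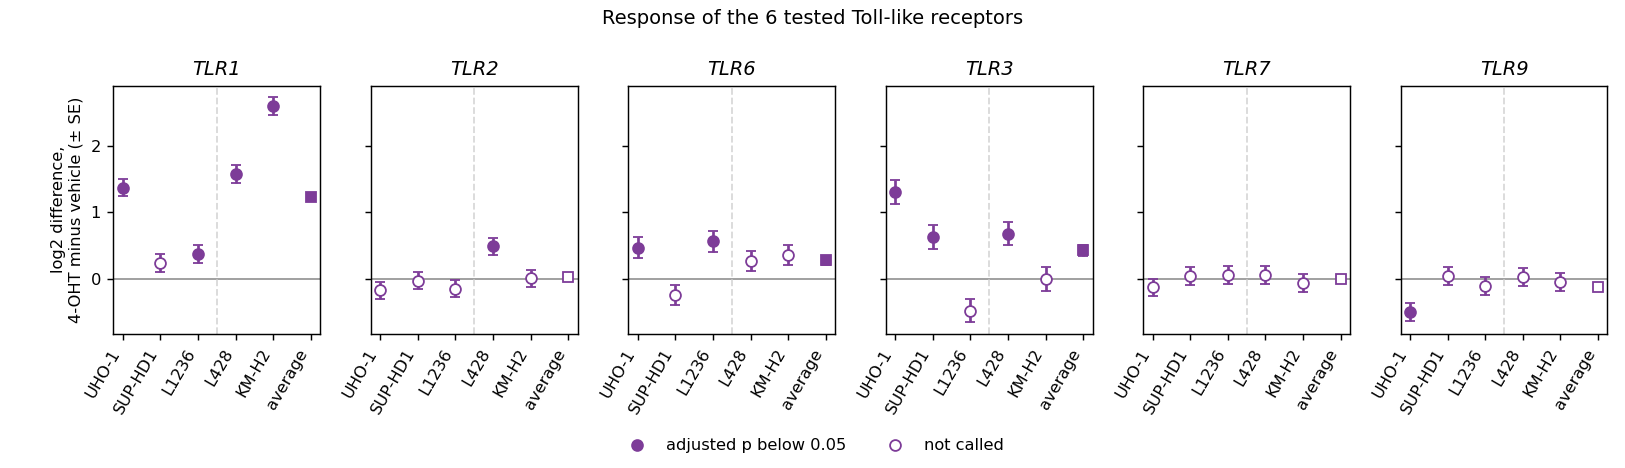
Difference in log2 signal, 4-OHT minus vehicle (vertical axis, with limma's SE as bars), of the 6 tested receptors in each line and averaged over the 5 lines (horizontal axis). Filled symbols passed at a limma adjusted p below 0.05. TLR1 reads 2.60 in KM-H2, against vehicle arrays below background, TLR3 is highest in UHO-1 at 1.305, and TLR9 in UHO-1 is the single filled symbol below the zero line, at -0.51.

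Counted together, 3 of the 6 tested receptors were called higher in UHO-1 and 1 lower, where 13.4% of all tested genes were called higher and 11.1% lower. In SUP-HD1 the count was 1 higher and 0 lower (3.68% and 2.35% of all genes), and in the line labelled L1236 it was 2 higher and 0 lower (8.25% and 14.9%). L428 had 3 higher and 0 lower (12% and 17.5%), and KM-H2 had 1 higher and 0 lower (10% and 12.3%). Of these calls, TLR6 in UHO-1, TLR3 in SUP-HD1, and TLR1 and TLR6 in the line labelled L1236 compare arms that were both below background. For the average of the 5 lines, 3 of 6 were called higher and 0 lower, against 17.4% and 21.2% of all genes. Without the arrays labelled L1236 the same 3 (TLR1, TLR3 and TLR6) were called higher and 0 lower, against 18.2% and 21% of all genes. The median difference of the 6 receptors was 0.17 in UHO-1, 0.04 in SUP-HD1, -0.03 in the line labelled L1236, 0.37 in L428 and 0.001 in KM-H2, where the median of all tested genes lay between -0.03 and -0.0026. Of the 6, 4 varied between lines by the F test, against 42.7% of all genes, and the same 4 did without the arrays labelled L1236, against 36.4%. Centring each array on its median moved the split of calls over all genes, to 2439 higher and 914 lower in UHO-1 against 2118 and 1760 as deposited, to 458 and 172 in SUP-HD1 against 583 and 373, and to 851 and 2763 in the line labelled L1236 against 1307 and 2354. Under that centring UHO-1 and SUP-HD1 kept 4 and 1 receptors called, while on the arrays labelled L1236 the TLR1 call was lost and TLR3 was called lower (adjusted p = 0.0242).

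The vehicle cultures differed in which receptor transcripts lay above background. KM-H2 had at least 3.86-fold more TLR7 signal than L428, and L428 had at least 1.57-fold more TLR2 (limma adjusted p = 6.45e-07). In the other set, SUP-HD1 had at least 6.28-fold more TLR6 signal than UHO-1 and at least 6.66-fold more than the line labelled L1236. TLR7 entered the test through KM-H2 and TLR6 through SUP-HD1, so their p-values are no separate support and are left out here. For TLR1, SUP-HD1 stood at least 4.22-fold above UHO-1 (adjusted p = 9.88e-13) and at least 4.48-fold above the line labelled L1236 (adjusted p = 2.19e-15). After 4-OHT the mean TLR1 signal of UHO-1, 7.08, was still below that of SUP-HD1 after vehicle, 7.94. TLR3 ran in the order of the line labelled L1236 (7.63), UHO-1 (6.63) and SUP-HD1 (4.95, below background), and each neighbouring pair differed (L1236 minus UHO-1, 1.00 ± 0.18; UHO-1 minus SUP-HD1, 1.68 ± 0.18). TLR9 kept the same leading line, with L1236 at 7.84 ahead of UHO-1 (7.15) and SUP-HD1 (6.79), the last pair differing by 0.36 ± 0.14 (adjusted p = 0.0276). TLR9 in KM-H2 (6.11) and in L428 (5.98) did not differ beyond the spread (0.13 ± 0.14, adjusted p = 0.466). Of the 6 tested receptors, 4 differed between KM-H2 and L428, 4 between UHO-1 and SUP-HD1, 3 between L1236 and UHO-1 and 4 between L1236 and SUP-HD1. The shares of all genes were 54.2%, 53.8%, 56.8% and 57.5%, near these counts. TLR1 and TLR3 between KM-H2 and L428, and TLR1 between L1236 and UHO-1, compare lines that were both below background. The counts also include TLR7 and TLR6 in the lines through which they entered the test. The count between UHO-1 and SUP-HD1 was 3 with median centring or with quantile normalization over all arrays.

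The genes whose pattern was most like that of TLR1, by Pearson correlation over the 20 arrays after each line's mean was subtracted, were RANBP9, ZNF267 and UBE2H, with r of 0.983, 0.983 and 0.978, and 0.986, 0.983 and 0.98 over the 16 arrays without those labelled L1236. Most TLR1 vehicle readings in it were below background, and the arrays share their normalisation and their treatment arms, so the values are a description. RANBP9, a scaffold protein that binds the GTPase Ran, differed by 0.94 in KM-H2, 0.59 in L428, 0.59 in UHO-1, 0.13 in SUP-HD1 and 0.09 in the line labelled L1236 (4-OHT minus vehicle, log2). ZNF267, a zinc finger protein, gave 1.43, 1.00, 0.70, 0.41 and 0.15 in the same order of lines. UBE2H, a ubiquitin-conjugating enzyme, gave 1.44, 0.81, 0.56, 0.20 and 0.10. In all 3 genes KM-H2 moved most and the line labelled L1236 least. They were picked for a pattern like that of TLR1, which moved most in KM-H2 as read, so the lead of KM-H2 is no separate result.

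Downstream of the receptors, 6 of 19 tested adaptor and signalling genes were called higher on average over the 5 lines and 4 lower, where 17.4% of all genes were higher and 21.2% lower, with a median difference of 0.01 beside -0.02 over all genes. The counts were the same without the arrays labelled L1236, when the shares of all genes were 18.2% and 21%. In the averages that follow, the value without those arrays stands in brackets. MYD88, the adaptor of every receptor measured here but TLR3, was above background in all lines and fell by 0.29 in KM-H2 and by 0.19 in L428, without a call elsewhere. TICAM1, the TLR3 adaptor, was above background in all lines and was called in none. PELI1, a ubiquitin ligase of the pathway, rose by 0.605 ± 0.04 on average (0.79, adjusted p = 1.87e-10 over the 5 lines) and was called higher in KM-H2 (0.61), L428 (1.54) and UHO-1 (0.71). PELI2, its relative, rose by 0.53 ± 0.05 on average (0.48), with 1.47 in L428 and 0.74 in the line labelled L1236. IKBKE, a kinase that activates interferon regulatory factors, fell by 0.43 ± 0.04 on average (-0.57, adjusted p = 2.9e-09 over the 5 lines), and the fall was called in UHO-1 (-0.35), KM-H2 (-1.36) and L428 (-0.68).

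Among the proteins that help receptors fold, move and mature, 5 of 13 tested genes were called higher on average and 3 lower (17.4% and 21.2% of all genes), with a median of -0.02. Without the arrays labelled L1236 the counts were 5 and 2. CNPY3, a chaperone that several Toll-like receptors need to leave the endoplasmic reticulum, fell by 0.39 ± 0.03 on average (-0.47, adjusted p = 4.86e-11 over the 5 lines), and the fall was called in SUP-HD1 (-0.20), UHO-1 (-0.29), KM-H2 (-0.72) and L428 (-0.65). UNC93B1, which carries endosomal receptors to their compartment, was above background in every line and was called in none. The endosomal proteases LGMN and CTSB, which cut nucleic acid-sensing receptors into their active form, rose by 0.70 ± 0.04 (0.95) and 0.29 ± 0.03 (0.22) on average, with adjusted p of 7.79e-13 and 1.8e-07 over the 5 lines. The LGMN lines disagreed, at 3.45 in KM-H2 and 0.60 in UHO-1, both called higher, and -0.43 in SUP-HD1 and -0.30 in the line labelled L1236, both called lower. LY96, the TLR4 partner, was above background in SUP-HD1 and the line labelled L1236, in both of which TLR4 was not.

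Of 10 genes that restrain the pathway, 4 were called higher and 4 lower on average, against 17.4% and 21.2% of all genes, with a median of 0.04 (4 and 3 without the arrays labelled L1236). TNFAIP3, the deubiquitinase A20, averaged a rise of 0.34 ± 0.03 (0.43, adjusted p = 2.9e-09 over the 5 lines) and was called higher in 4 lines, all but that labelled L1236. SOCS1, a feedback inhibitor of cytokine signalling, fell by 0.76 ± 0.05 on average (-0.79, adjusted p = 1.02e-11 over the 5 lines). IL1RL1, a receptor related to the Toll-like receptors through its signalling domain, was above background in L428 alone, where it rose by 1.44. Of 16 target genes, 4 were called higher and 4 lower (17.4% and 21.2% of all genes), with a median of -0.01, and the counts were the same without the arrays labelled L1236. The chemokine gene CXCL10 was called higher in L428 (1.54) and KM-H2 (2.41) and was not called in the other 3 lines, while CCL5 fell by 3.64 in KM-H2, 0.61 in SUP-HD1 and 0.49 in UHO-1.

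Of 11 other innate sensors, 1 was called higher and 4 lower on average, beside 17.4% and 21.2% of all genes, with a median of -0.08. The rise was that of STING1, the adaptor of cytosolic DNA sensing, at 0.33 ± 0.05 (adjusted p = 2.19e-05), and it came with a difference of 1.44 in the line labelled L1236. Without those arrays STING1 averaged 0.06 ± 0.06 and was not called (adjusted p = 0.465), and the counts became 0 higher and 5 lower. The DNA sensors AIM2 and CGAS averaged -0.27 ± 0.05 (-0.31) and -0.24 ± 0.05 (-0.25), with adjusted p of 0.000213 and 0.000397 over the 5 lines. AIM2 was called lower in L428 (-0.73) among the 5 lines and was below background in UHO-1, KM-H2 and the line labelled L1236, and CGAS was called lower in L428 (-0.36) and KM-H2 (-0.34). Of 7 tested members of the interleukin-1 receptor family, which share the signalling domain of the Toll-like receptors, 2 were called higher and 0 lower, with the arrays labelled L1236 (17.4% and 21.2% of all genes) or without them (18.2% and 21%). IL1RAP, the shared chain of interleukin-1 and interleukin-33 receptors, rose by 2.02 in KM-H2 and 0.65 in UHO-1 (average 0.62 ± 0.05, and 0.71 without the arrays labelled L1236, adjusted p = 1.25e-09 over the 5 lines).

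**Figure D4:**
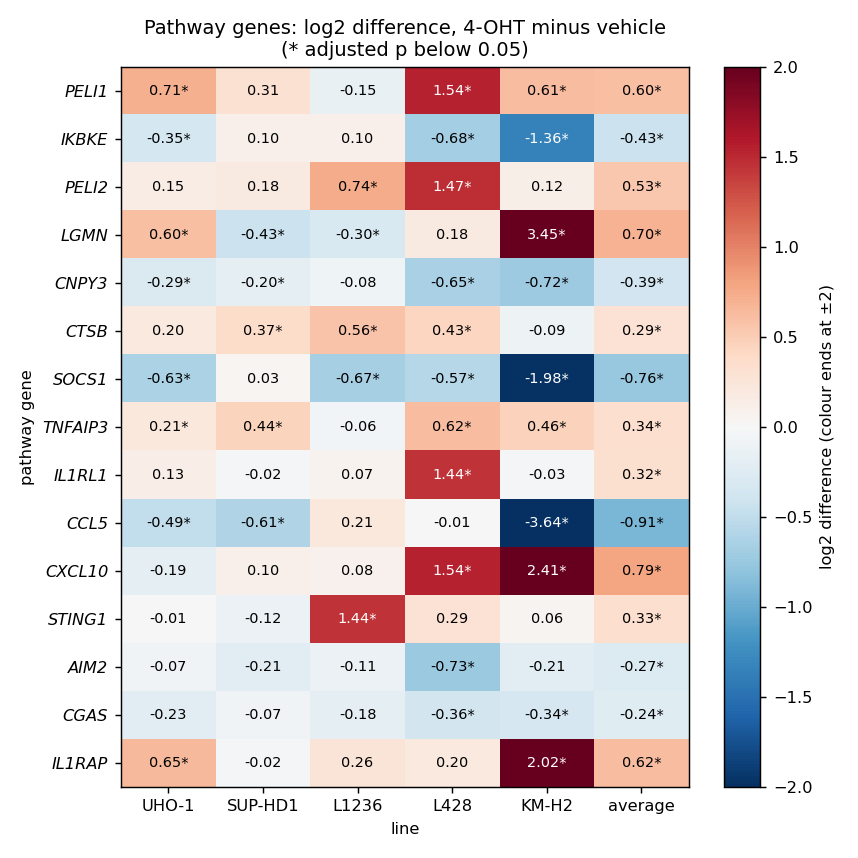
Difference in log2 signal, 4-OHT minus vehicle, of the pathway genes named by rule (rows) in each line and on average (columns), written in each cell, with an asterisk where the limma adjusted p was below 0.05. Red is higher and blue is lower with 4-OHT, and the colours end at 2 in either direction. LGMN at 3.45 and CCL5 at -3.64, both in KM-H2, are the extreme cells.

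Single markers of other cell types moved with the treatment on the arrays labelled L1236. Of 3 tested B cell markers, 1 was called higher and 0 lower there. Of 6 tested myeloid markers, 1 was called higher and 0 lower, where 8.25% of all genes were higher and 14.9% lower. CD79A, a chain of the B cell receptor complex, rose there by 2.36 and the myeloid gene LYZ by 3.66. The summed signal of the 4 B cell markers was 3526 to 3604 after 4-OHT against 862 to 961 after vehicle, and that of the 9 myeloid markers was 567 to 580 against 316 to 347 (2 of 9 above background after 4-OHT and 1 after vehicle). Of 5 stromal and endothelial markers, 0 were called higher and 1 lower there, and of 5 T cell markers 1 was higher and 1 lower. The stromal and endothelial sum was 970 to 1024 after 4-OHT against 1471 to 1643 after vehicle. The part of all these markers in the receptor values of those arrays was not tested. In KM-H2 the myeloid sum was 254 to 265 after 4-OHT and 355 to 361 after vehicle, and in L428 it was 229 to 232 after 4-OHT and 219 to 223 after vehicle. In both lines, where TLR1 rose, 0 of 5 T cell markers were above background in either arm. The myeloid markers above background numbered 4 of 9 in both arms of KM-H2, and 3 after 4-OHT and 2 after vehicle in L428. In UHO-1 and SUP-HD1 the myeloid sum was 352 to 441 after 4-OHT and 427 to 495 after vehicle, with 2 of 9 markers above background after 4-OHT and 3 after vehicle in UHO-1. Of the 6 tested myeloid markers, 4 were called lower in UHO-1 (11.1% of all genes), 1 in SUP-HD1 (2.35%) and 1 in KM-H2 (12.3%). In L428, 1 was called higher (12% of all genes). The 7 Hodgkin cell markers summed to 6071 to 6789 after 4-OHT and 9630 to 10261 after vehicle in L428. There 5 of 7 were called lower (17.5% of all genes). In KM-H2 the sum was 5059 to 5521 after 4-OHT and 6210 to 6316 after vehicle, with 3 of 7 called lower (12.3% of all genes). In UHO-1 it was 11299 to 11714 after 4-OHT and 12558 to 13005 after vehicle, with 1 of 7 called lower, near the 11.1% of all genes. TNFRSF8 (CD30), the defining marker, fell by 1.45 in L428 and by 1.38 in KM-H2. The part of these marker changes in the receptor values was not tested.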

How the data were processed

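Human Gene 1.0 ST arrays (Affymetrix) gave 1 profile for each of 20 RNA samples. The authors deposited log2 signals from RMA, per the labels, with RMA version and array build not given in the sources used here. Of 33268 probe sets, 19457 carried 1 gene symbol, 1751 several and 12060 none in the platform annotation. Entrez identifiers of 19426 matched RefSeq of GRCh38.p14 and changed 0 symbols. Genes with more than 1 probe set were read from the set with the highest mean. Sorted values differed by at most 0.253 within the KM-H2 and L428 arrays and 0.204 within the others, but by at least 0.712 between these sets, which were therefore taken as normalised apart. Array medians ran from 5.67 to 5.71 and from 6.26 to 6.41. The number of arrays limits the precision, and the SD of the difference between arrays of a group was 0.173 to 0.244.

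limma 3.58.1 in R 4.3.3 fitted 10 group means to all 20 arrays (lmFit, eBayes with an intensity trend), with 10 residual and 11.8 prior degrees of freedom. P-values were adjusted by Benjamini-Hochberg over the 15850 genes with log2 of at least 5 in 2 arrays. An F test compared responses between lines. The script was tested on simulated data. Where one arm was above background and the other was not on either array, the fold is a bound, with dim arrays set to the higher of their value and their background. Marker sums add linear signals.

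Groups came from the array titles. Replicate numbers were not used as a block, since the deviations of same-numbered arrays correlated between -0.557 and 0.294 over the 5 lines. Alternatives covered normalisation, floor, variance model, probe set rule, arrays in the fit, a block, the background level, and each array left out. The members and lists were chosen with earlier results of these data known. Named genes were all members, the 3 genes of each pathway list called on average with the smallest adjusted p, and the 3 genes most correlated with the member of largest change. MYD88, TICAM1, UNC93B1 and LY96 were named after their values were seen. Figures and summaries used Python 3.11.15. The lists for stromal and endothelial cells and plasmacytoid dendritic cells had 2 of 5 and 0 of 3 tested genes called lower on average, and 0 called higher. Of all genes, 21.2% were lower and 17.4% higher. Without the arrays labelled L1236 the counts called lower were 1 and 0, against 21% of all genes.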

Additional observations from a re-analysis of the deposited data

Results flagged for a closer look

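4 receptors responded differently in different lines by the F test of limma, as did 42.7% of all genes (36.4% without the arrays labelled L1236). The adjusted p was 3.65e-09 for TLR1, 5.22e-05 for TLR3, 0.0216 for TLR2 and 0.0292 for TLR6. The TLR1 differences (4-OHT minus vehicle, log2) ran from 0.23 in SUP-HD1 to 2.60 in KM-H2, all above 0, with vehicle arrays below background in each line but SUP-HD1. Those of TLR3 ran from -0.48 in the line labelled L1236 to 1.305 in UHO-1. Those of TLR2 ran from -0.18 in UHO-1 to 0.49 in L428, and L428 was the line in which TLR2 was above background. Those of TLR6 ran from -0.24 in SUP-HD1, the line in which it was above background, to 0.56 in the line labelled L1236. Without the arrays labelled L1236 the adjusted p was 5.24e-08 for TLR1, 0.00238 for TLR3, 0.026 for TLR2 and 0.0464 for TLR6.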

How the results depend on the processing

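No change that was called, in the main fit or in the alternative, reversed its sign. Some uncalled differences did change sign, such as that of TLR7 in L428 (-0.15 to 0.26). Of the 11 single-line calls, 4 held in all 31 alternatives of each (TLR1 in UHO-1, L428 and KM-H2, and TLR3 in UHO-1) and 7 were lost in some. TLR1 on the arrays labelled L1236 was lost in 21, with adjusted p up to 0.284, among them all 3 other normalisations. TLR3 in that line became called lower in 12. Single arrays decided TLR2 in L428 (adjusted p = 0.103 without the first 4-OHT array) and TLR3 in L428 (0.0961 without the second vehicle and 0.111 without the second 4-OHT array). They also decided TLR6 in UHO-1 (0.228 without the first vehicle and 0.235 without the second 4-OHT array) and TLR6 in the line labelled L1236 (0.112 without the second vehicle and 0.0837 without the first 4-OHT array). TLR9 in UHO-1 was lost without the second vehicle (0.0651) or second 4-OHT array (0.0782). TLR3 in SUP-HD1 was lost without the first vehicle array (0.441) and without either 4-OHT array (0.132 and 0.233), and with eBayes without a trend or the line's own arrays alone, when SUP-HD1 had 0 calls in place of 1. The line labelled L1236 had 1 call in place of 2 with no floor and with the replicate block. The count of receptors that varied was 2 in KM-H2 and L428 alone, in place of 4. It was 3 in UHO-1, SUP-HD1 and the line labelled L1236 alone. Fewer arrays and fewer lines entered both of those fits. The cause of the changes listed here was not tested. Leaving out 1 array at a time, the counts called were 2 to 4 in UHO-1, 0 to 1 in SUP-HD1, 0 to 3 in the line labelled L1236, 2 to 3 in L428, 1 to 2 in KM-H2, 3 to 4 on average and 3 to 4 for variation.

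The replicate block rests on numbers that the labels give but do not tie to a shared culture, and it moved the calls over all genes from 3878 to 3315 in UHO-1 at most. It left 3 receptors varying in place of 4. With the numbers of the line labelled L1236 crossed, chosen after the data were seen, its calls over all genes were 4294 in place of 3661. Combinations above background numbered 16 after 4-OHT and 13 after vehicle at the 90th percentile, 12 and 8 at the 99th, and 18 and 14 at a fixed log2 of 5. Signals under background limit TLR4, TLR8 and most values of TLR2, TLR6 and TLR7.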

Other observations

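Some of the genes near the receptors in RefSeq order gave the following values, with no test of a link to them. The rule for named genes does not cover them, and other neighbours were called too. TRIM32, next to TLR4, was called higher in L428 and KM-H2, and TMEM156, near TLR6, lower in L428 and the line labelled L1236. KLF3, a transcription factor gene that lies 2 places from TLR1, was called lower in KM-H2 (-0.93 ± 0.09, limma adjusted p = 6.68e-08), where TLR1 rose, and higher in the other 4 lines, by 0.40 in SUP-HD1, 0.53 in L428, 0.82 in UHO-1 and 2.80 in the line labelled L1236. FAM114A1, next to TLR6, was called higher in SUP-HD1 alone among the 5 lines (0.73 ± 0.12, adjusted p = 0.000249). TMEM131L, next to TLR2, rose by 0.99 in L428, where TLR2 rose, and by 0.85 in UHO-1, where TLR2 was below background, and fell by 0.27 in KM-H2. PRPS2, a gene of nucleotide synthesis near TLR7, was called lower in all 5 lines, with differences of -0.59 in L428 to -0.19 in the line labelled L1236, while TLR7 was called in none.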
